A study of Mus musculus with 16 samples.

Results

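The TNF receptor superfamily holds the receptors through which activated T cells take up late costimulatory and death signals, and 9 of its members were described here in mouse naive CD4+ T cells. The members were Tnfrsf4 (OX40), Tnfrsf9 (4-1BB), Tnfrsf18 (GITR), Tnfrsf8 (CD30), Cd27, Tnfrsf1a (TNFR1), Tnfrsf1b (TNFR2), Tnfrsf25 (DR3) and Fas. Each was chosen by name and read from the array probe that carries its symbol alone, of which each had 1. All 9 were among the 16427 genes tested, out of 19938 genes with such a probe. The cells were B6 CD4+CD62LhiCD25- T cells, sorted from spleen and lymph nodes. They came from mice lacking Dec1, the helix-loop-helix transcription factor that the gene Bhlhe40 encodes, or from wild-type mice. The cells were activated for 24 h with latex beads. The beads bore anti-CD3 alone, a stimulus through the antigen receptor, or anti-CD3 and anti-CD28, which adds costimulation through CD28. The 4 groups were KO_CD3CD28, WT_CD3CD28, KO_CD3 and WT_CD3 (KO, knockout; WT, wild type), with 4 arrays each. The labels number the replicates 1 to 4 without naming animals, so p-values measure the spread between these arrays only, and some of that spread may be technical. Tissue of origin, culture, sort and time were shared by all 4 groups, and none was unstimulated.

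These receptors sit in the plasma membrane and are engaged by trimeric ligands of the TNF family on other cells. The cytoplasmic tails of members without a death domain recruit TRAF adaptors, which feed the NF-kB and MAP kinase pathways and promote survival and division. The tails of Tnfrsf1a, Tnfrsf25 and Fas carry a death domain, which can assemble complexes that activate caspases. In T cells, Cd27 is already present on resting naive cells, whereas Tnfrsf4, Tnfrsf9 and Tnfrsf8 appear after activation, and Tnfrsf18 is constitutive on regulatory T cells and induced on others.

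The sequences around the start sites are shown because several members changed with the stimulus and because Dec1 is known to bind the E-box CACGTG. RefSeq promoter windows of build GRCm38.p6, from 250 bases before to 50 after a start, were matched by symbol for all 9 members, which gave 11 windows. They were searched on both strands for the E-box CACGTG, for the AP-1 site TGANTCA and for the NF-kB consensus. Of the 11 windows, 4 held a motif, and these are printed 5′ to 3′ with each motif in capitals.
Tnfrsf4: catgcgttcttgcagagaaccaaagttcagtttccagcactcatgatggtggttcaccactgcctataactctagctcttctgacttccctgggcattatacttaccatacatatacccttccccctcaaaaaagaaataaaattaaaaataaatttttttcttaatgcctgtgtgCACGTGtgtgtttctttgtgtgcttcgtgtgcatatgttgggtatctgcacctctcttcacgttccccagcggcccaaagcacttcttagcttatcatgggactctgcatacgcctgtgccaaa
Tnfrsf9, the downstream of its 2 starts: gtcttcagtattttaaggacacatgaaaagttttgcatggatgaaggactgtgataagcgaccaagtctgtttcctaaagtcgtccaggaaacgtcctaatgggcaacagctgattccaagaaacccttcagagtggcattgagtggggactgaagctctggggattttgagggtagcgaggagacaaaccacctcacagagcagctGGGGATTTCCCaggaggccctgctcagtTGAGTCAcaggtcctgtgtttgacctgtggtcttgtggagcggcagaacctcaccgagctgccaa
Tnfrsf8: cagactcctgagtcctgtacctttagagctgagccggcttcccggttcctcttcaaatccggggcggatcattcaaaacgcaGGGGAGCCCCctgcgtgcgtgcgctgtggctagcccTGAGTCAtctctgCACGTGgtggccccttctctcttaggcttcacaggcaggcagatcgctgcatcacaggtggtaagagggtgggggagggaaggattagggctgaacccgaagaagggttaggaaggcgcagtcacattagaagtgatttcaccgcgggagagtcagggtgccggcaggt
Fas: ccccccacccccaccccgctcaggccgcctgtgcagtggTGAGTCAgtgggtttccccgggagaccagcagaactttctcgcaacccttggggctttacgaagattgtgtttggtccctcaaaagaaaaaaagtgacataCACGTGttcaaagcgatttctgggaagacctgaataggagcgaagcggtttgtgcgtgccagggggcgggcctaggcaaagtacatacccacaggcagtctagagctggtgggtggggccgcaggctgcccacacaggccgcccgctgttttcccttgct
The Tnfrsf4 window is chr4:156013445-156013744 on the plus strand, and its E-box lies at -74 to -69 from the start. The Tnfrsf9 window is chr4:150927749-150928048 on the plus strand. Its capitals mark overlapping NF-kB matches at -43 to -34 and -42 to -33, and an AP-1 site at -15 to -9. The Tnfrsf8 window, chr4:145315115-145315414 on the minus strand, holds an NF-kB match at -168 to -159, an AP-1 site at -132 to -126 and an E-box at -119 to -114. The Fas window, chr19:34290409-34290708 on the plus strand, holds an AP-1 site at -211 to -205 and an E-box at -110 to -105. The E-box was thus found in 3 of 9 genes, the AP-1 site in 3 and the NF-kB consensus in 2. Among all 32851 windows of 300 bases in the table, 7.15% held the E-box, 7.81% the AP-1 site and 4.51% the NF-kB consensus. A match of letters describes the window and is not a site of binding.

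By position, 6 members lie on chromosome 4, 2 on chromosome 6 and 1 on chromosome 19. Tnfrsf4 and Tnfrsf18 are neighbours with 0 protein-coding genes between them in RefSeq (GRCm38.p6), and so are Tnfrsf1b and Tnfrsf8.

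The arrays gave RMA log2 signals with medians of 6.64 to 6.97 per array, and their number limits the precision. Bhlhe40, the targeted gene, was at 5.88 ± 0.14 in KO_CD3CD28 and 9.51 ± 0.71 in WT_CD3CD28, and at 5.53 ± 0.32 in KO_CD3 and 7.56 ± 0.42 in WT_CD3 (SD, n = 4). The deviations of arrays from their group means had a first component with 39.6% of the variance. It parted replicates 1 and 2 from replicates 3 and 4 in all 4 groups, and the labels name no batch. Same-numbered arrays deviated together in every comparison (correlations of 0.157 to 0.586), so values with the replicate number as a block are given where they change the call of a receptor or the count of a marker list. T cell identity genes averaged 10.8 to 11.6 log2 units on every array. In each group all 10 tested had means above the level of a panel of tissue-restricted genes, whose 90th percentile was 7.02. B cell and myeloid markers mostly had means under it: in KO_CD3, 6 of 7 and 8 of 9 did, and in WT_CD3 6 of 7 and 6 of 9. Of the CD8 and NK markers bright enough to be tested, 2 of 6 had means under that level in each group. Ncr1, Klrb1c and Gzma of the same list were too dim to be tested. Ncr1 and Klrb1c lay under that level on all 16 arrays. Cd8b1 averaged 8.67 in KO_CD3 and 8.80 in WT_CD3, and Klrd1 10.28 and 9.36. Of the 9 receptors, 8 exceeded that level on all 16 arrays. Tnfrsf8 was under it on 13 arrays, so its signal lay close to background.

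**Figure D1:**
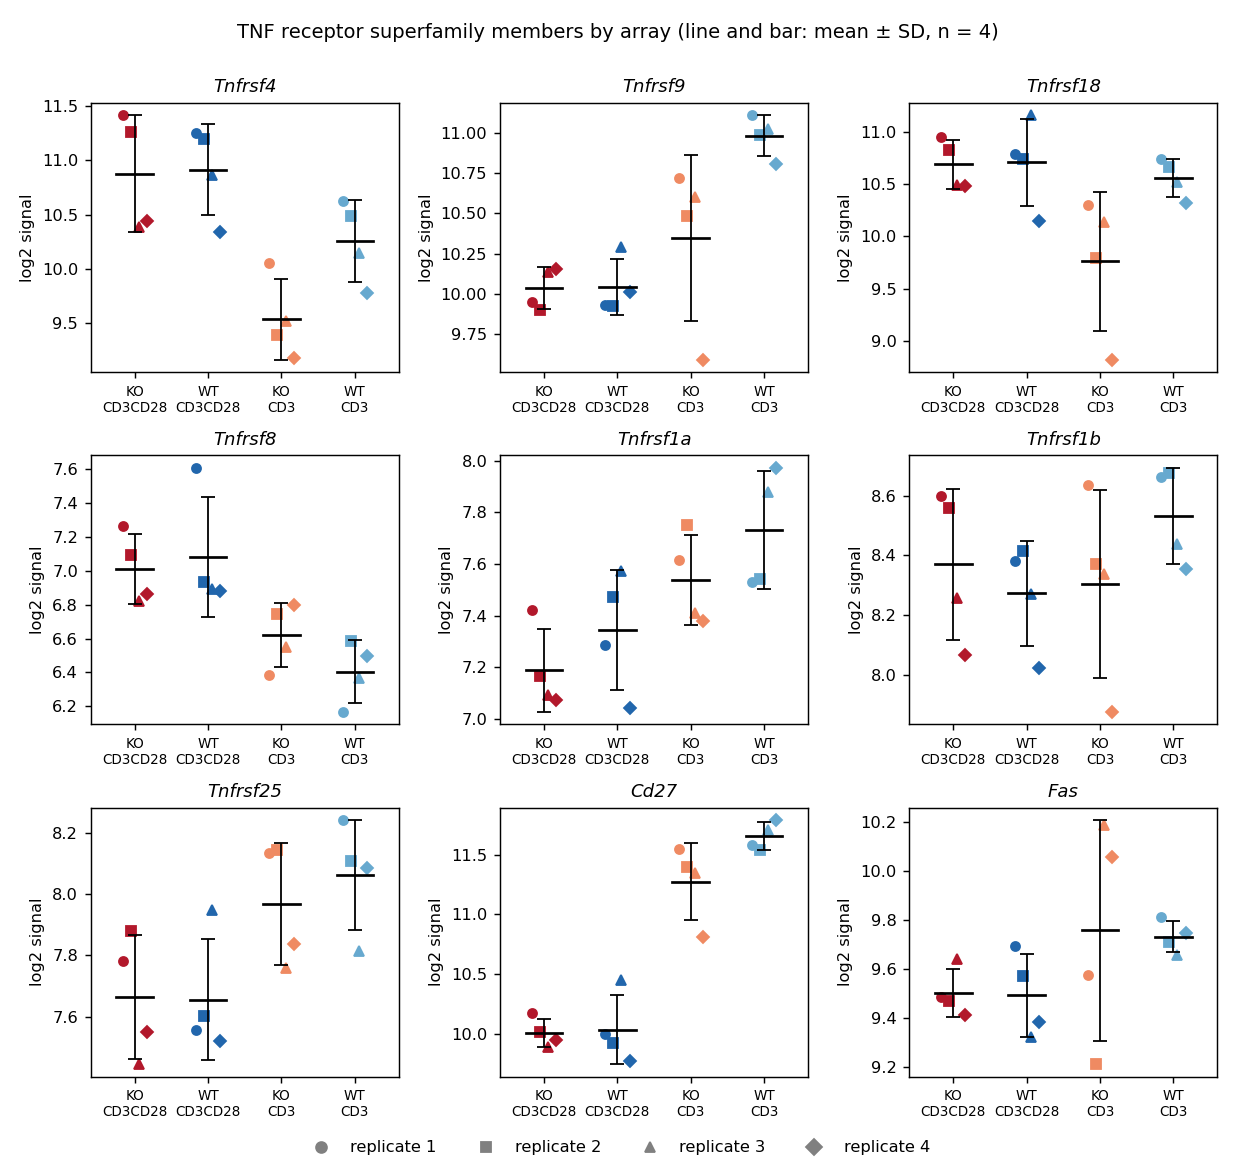
RMA log2 signal (vertical axes) of the 9 receptors on each array, by group (horizontal axes), with lines and bars for mean ± SD (n = 4) and a marker shape per replicate number. Cd27 lay at 9.77 to 10.4 on the 8 arrays with anti-CD28 and at 10.8 to 11.8 on the 8 with anti-CD3, and the KO_CD3 arrays were the lowest group for Tnfrsf4 and Tnfrsf18.

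The first question was how adding anti-CD28 to anti-CD3 moved each receptor, in cells with and without Dec1. In knockout cells Tnfrsf4 and Tnfrsf18 rose and Cd27 and Tnfrsf1a fell. In wild-type cells Tnfrsf8 rose and Cd27, Tnfrsf9, Tnfrsf25 and Tnfrsf1a fell. In knockout cells, 4 of 9 members thus passed an adjusted p of 0.05 in limma, 2 in each direction, against 38% of all genes (20.4% higher and 17.6% lower). In wild-type cells 5 of 9 passed, 1 higher and 4 lower, against 29% of all genes (16% higher and 13% lower). The share of members called was near that background in knockout cells, and with 9 members neither share sets them apart from other genes. With the replicate block 5 members passed in knockout cells, against 45.3% of all genes (23.3% higher and 22% lower). In wild-type cells 7 passed, against 35.3% (18.8% higher and 16.5% lower). The median log2 difference of the members was -0.26 in both genotypes, beside -0.06 in knockout and -0.03 in wild-type cells over all genes. On bulk arrays, fewer cells that carry a transcript cannot be told apart from less transcript per cell.

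Cd27, the receptor for CD70 that sustains naive and early activated T cells, had the steepest decline of the 9 in both genotypes. Its log2 signal was 10.17, 10.02, 9.89 and 9.95 in KO_CD3CD28, against 11.55, 11.40, 11.35 and 10.81 in KO_CD3. It was 10.00, 9.92, 10.45 and 9.77 in WT_CD3CD28, against 11.58, 11.54, 11.71 and 11.79 in WT_CD3. In both genotypes every anti-CD28 array lay under every anti-CD3 array. Such groups were apart for 4 of 9 members in knockout cells, beside 34.9% of all genes. In wild-type cells they were apart for 3 of 9 members, beside 30.4% of all genes. Cd27 fell by 1.27 on the log2 scale in knockout cells (SE 0.15, limma adjusted p = 4.17e-06), a 2.41-fold decrease. It fell by 1.62 in wild-type cells (SE 0.15, limma adjusted p = 5.71e-07), a 3.07-fold decrease. T cell identity markers moved in the same direction: 4 of 10 fell and 1 rose in knockout cells, and 6 fell and 1 rose in wild-type cells (8 and 1 with the block). Their median differences were -0.36 and -0.57, while 17.6% of all genes fell in knockout and 13% in wild-type cells. The part of these markers in the Cd27 result was not tested.

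Tnfrsf4, or OX40, a receptor that prolongs the survival of activated T cells, was higher with anti-CD28. Its log2 signal was 11.42, 11.27, 10.39 and 10.44 in KO_CD3CD28, against 10.05, 9.39, 9.51 and 9.17 in KO_CD3. It was 11.26, 11.20, 10.87 and 10.34 in WT_CD3CD28, against 10.63, 10.48, 10.15 and 9.78 in WT_CD3. The groups did not overlap in knockout cells and did in wild-type cells, although all 4 pairs of the same number were higher with anti-CD28 there, by 0.56 to 0.72. The log2 difference was 1.35 in knockout cells (SE 0.26, limma adjusted p = 0.00061), a 2.55-fold rise. In wild-type cells it was 0.66 (SE 0.26, limma adjusted p = 0.0736), and with the replicate block the adjusted p was 0.000667.

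Tnfrsf18, or GITR, is the chromosomal neighbour of Tnfrsf4 and a costimulator of conventional T cells. Its log2 signal was 10.95, 10.82, 10.49 and 10.48 in KO_CD3CD28, against 10.30, 9.79, 10.13 and 8.82 in KO_CD3. It was 10.79, 10.73, 11.15 and 10.15 in WT_CD3CD28, against 10.73, 10.66, 10.52 and 10.32 in WT_CD3. The knockout groups were apart, with replicate 4 of KO_CD3 well under the rest, and the wild-type groups overlapped. Tnfrsf18 rose by 0.92 on the log2 scale in knockout cells (SE 0.26, limma adjusted p = 0.00859), a 1.90-fold rise. Leaving out single arrays gave 0.61 to 1.10, the lowest without KO_CD3 replicate 4. With replicates 3 and 4 alone its difference was 1.01 and its limma adjusted p 0.11. In wild-type cells the difference was 0.15 (95% interval -0.39 to 0.69).

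Tnfrsf9, or 4-1BB, which supports division and survival and is best known on CD8 T cells, went the other way from Tnfrsf4. Its log2 signal was 9.95, 9.89, 10.13 and 10.15 in KO_CD3CD28, against 10.72, 10.48, 10.60 and 9.59 in KO_CD3. It was 9.93, 9.92, 10.29 and 10.01 in WT_CD3CD28, against 11.11, 10.99, 11.03 and 10.81 in WT_CD3. The wild-type groups were apart, and in knockout cells replicate 4 of KO_CD3 lay under all 4 anti-CD28 arrays. Tnfrsf9 fell by 0.95 on the log2 scale in wild-type cells (SE 0.18, limma adjusted p = 0.000674), a 1.93-fold decrease. In knockout cells the difference was -0.32 (SE 0.18, limma adjusted p = 0.18). Without KO_CD3 replicate 4 the knockout difference was -0.57 (adjusted p = 0.000539), and with replicates 3 and 4 alone 0.049 (adjusted p = 0.934). In wild-type cells replicates 3 and 4 alone gave -0.77 with an adjusted p of 0.0821.

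Tnfrsf8, or CD30, is found on a share of activated T cells. Its log2 signal was 7.27, 7.09, 6.82 and 6.87 in KO_CD3CD28, against 6.39, 6.75, 6.55 and 6.80 in KO_CD3. It was 7.61, 6.93, 6.89 and 6.88 in WT_CD3CD28, against 6.16, 6.59, 6.37 and 6.50 in WT_CD3. The anti-CD28 arrays lay above the anti-CD3 arrays in both genotypes, by a narrow gap in knockout cells. Tnfrsf8 rose by 0.68 on the log2 scale in wild-type cells (SE 0.16, limma adjusted p = 0.00311). The difference was 0.39 in knockout cells (SE 0.16, limma adjusted p = 0.0584).

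Tnfrsf1a, the main receptor for TNF on most cells, ranged from 7.07 to 7.42 in KO_CD3CD28 and from 7.38 to 7.75 in KO_CD3. It ranged from 7.04 to 7.57 in WT_CD3CD28 and from 7.53 to 7.97 in WT_CD3, so both pairs of groups overlapped by a little. Tnfrsf1a fell by 0.35 on the log2 scale in knockout cells (SE 0.13, limma adjusted p = 0.048) and by 0.39 in wild-type cells (SE 0.13, limma adjusted p = 0.0377). These calls lay close to the threshold, and 17 of 33 alternative settings kept the first and 22 the second. With each array centred on its median, the adjusted p was 0.277 in knockout and 0.143 in wild-type cells.

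Tnfrsf25, or DR3, a costimulator of T cells despite its death domain, ranged from 7.44 to 7.88 in KO_CD3CD28 and from 7.76 to 8.15 in KO_CD3. It ranged from 7.52 to 7.95 in WT_CD3CD28 and from 7.81 to 8.24 in WT_CD3. Both pairs of groups overlapped. Tnfrsf25 fell by 0.41 on the log2 scale in wild-type cells (SE 0.13, limma adjusted p = 0.0244), a call that 21 of 33 alternatives kept. With each array centred on its median it was lost (adjusted p = 0.0898). In knockout cells the difference was -0.31 (SE 0.13, adjusted p = 0.0737 without and 0.0478 with the replicate block).

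Fas, whose death domain triggers the death of repeatedly stimulated T cells, did not pass in either genotype. It ranged from 9.41 to 9.64 in KO_CD3CD28, from 9.32 to 9.69 in WT_CD3CD28, from 9.21 to 10.19 in KO_CD3 and from 9.66 to 9.81 in WT_CD3. The KO_CD3 arrays were the most spread: replicates 3 and 4 were at 10.19 and 10.06, and replicates 1 and 2 at 9.57 and 9.21. The CD28 effect on Fas was -0.26 in knockout cells (95% interval -0.59 to 0.08) and -0.24 in wild-type cells (-0.57 to 0.09). Within the knockout it was 0.087 with replicates 1 and 2 alone and -0.60 with replicates 3 and 4 alone (limma adjusted p = 0.00871). Tnfrsf1b, the TNF receptor without a death domain, ranged from 8.07 to 8.60 in KO_CD3CD28, from 8.02 to 8.41 in WT_CD3CD28, from 7.87 to 8.64 in KO_CD3 and from 8.35 to 8.67 in WT_CD3. Its difference was 0.07 in knockout cells (95% interval -0.25 to 0.39). In wild-type cells it was -0.26 (SE 0.15, limma adjusted p = 0.228), and 0.0189 with the replicate block.

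**Figure D2:**
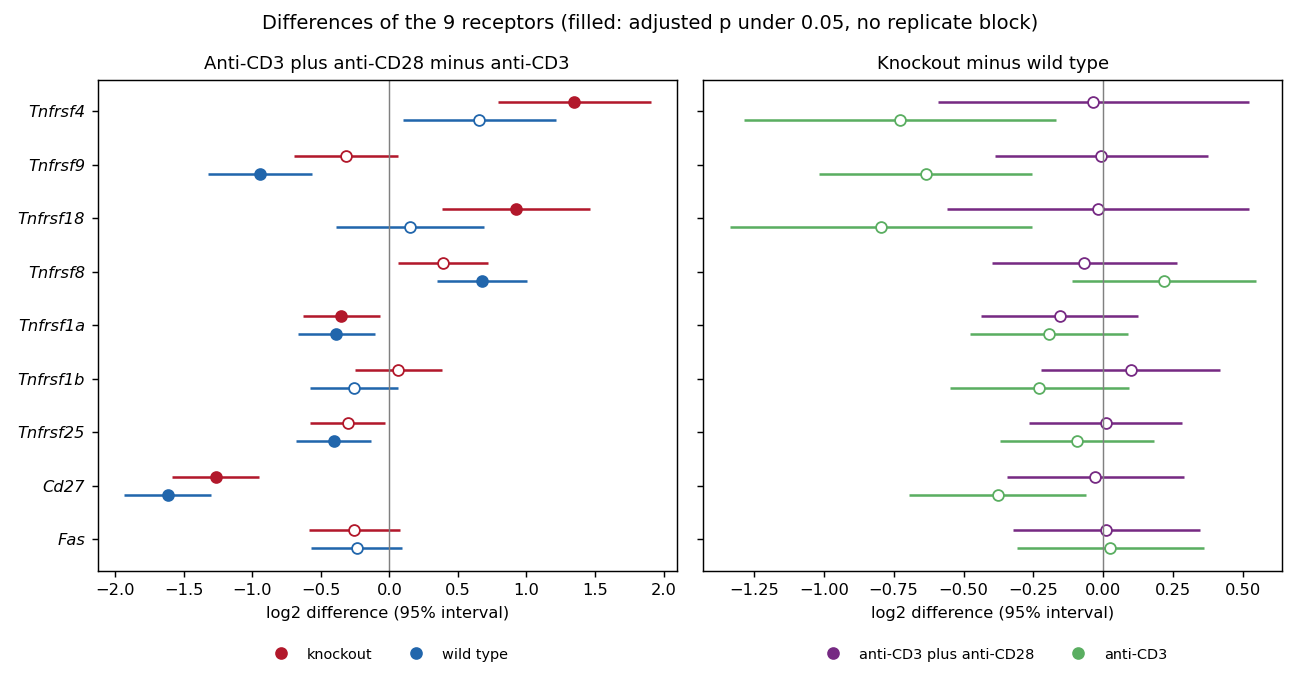
Log2 differences (horizontal axes) of the 9 receptors (rows) with 95% intervals, for anti-CD3 plus anti-CD28 minus anti-CD3 on the left and knockout minus wild type on the right. Filled points passed an adjusted p of 0.05 without the replicate block: 4 in knockout and 5 in wild-type cells on the left, and 0 on the right.

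The next question was what loss of Dec1 did to the receptors under each stimulus. Under anti-CD3 alone, Tnfrsf4, Tnfrsf9 and Tnfrsf18 were lower in knockout than in wild-type cells in all 4 replicate pairs, at 0.58 to 0.64 of the wild-type signal. None of the 9 members passed in limma without the block, where 1.03% of all genes did (0.28% higher and 0.749% lower). At an unadjusted p of 0.05, 4 members were lower and 0 higher, beside 24.3% of all genes in either direction. With the replicate number as a block, 3 of 9 members passed, all lower in knockout cells. In that fit 11.9% of all genes passed, 5.34% higher and 6.56% lower. The labels do not say what a number marks, and knockout and wild-type arrays of numbers 1, 2 and 4 differ in Xist. With the level of Xist as a covariate and no block, 0 of 9 members passed, as in the fit with neither. The differences with that covariate were -0.74 for Tnfrsf4, -0.59 for Tnfrsf9 and -0.75 for Tnfrsf18. The block and Xist were not fitted together, so the part of Xist in the blocked calls was not tested.

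The array values given above show the extent of this difference. Tnfrsf9 lay at 9.59 to 10.72 in KO_CD3 and at 10.81 to 11.11 in WT_CD3, without overlap, and differed by -0.64 on the log2 scale (SE 0.18, limma adjusted p = 0.0823; 0.0266 with the block). Tnfrsf18 lay at 8.82 to 10.30 in KO_CD3 and at 10.32 to 10.73 in WT_CD3, also without overlap. It differed by -0.80 (SE 0.26, limma adjusted p = 0.101; 0.0142 with the block). Groups were apart for these 2 of 9 members, beside 14.7% of all genes. Tnfrsf4 lay at 9.17 to 10.05 in KO_CD3 and at 9.78 to 10.63 in WT_CD3, so the groups overlapped. Its pairs were lower by 0.58 to 1.10, and its difference was -0.73 (SE 0.26, limma adjusted p = 0.126; 0.00586 with the block).

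Single replicates bore on these calls. KO_CD3 replicate 4 was the lowest array of its group in 6 of the 9 members: Tnfrsf4, Tnfrsf9, Tnfrsf18, Cd27, Tnfrsf1a and Tnfrsf1b. Without it the differences were -0.61 for Tnfrsf4, -0.38 for Tnfrsf9 and -0.48 for Tnfrsf18. In blocked fits that left out 1 replicate number at a time, 1 or 2 of the 3 calls remained. In these fits 114 to 772 of all genes passed, against 1954 with all replicate numbers. The Tnfrsf4 call was kept in all 4 (adjusted p 0.0124 to 0.049), the Tnfrsf9 call only without number 4 and the Tnfrsf18 call only without number 3. Within replicates 1 and 2 the differences were -0.84, -0.45 and -0.65 for Tnfrsf4, Tnfrsf9 and Tnfrsf18 (limma adjusted p 0.0184, 0.0292 and 0.0237). Within replicates 3 and 4 they were -0.62, -0.82 and -0.94 (adjusted p 0.213, 0.215 and 0.255).

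Cd27 was also lower in all 4 KO_CD3 pairs, by 0.04 to 0.99, and its difference was -0.38 (SE 0.15, limma adjusted p = 0.152; 0.0791 with the block). It was -0.22 without KO_CD3 replicate 4, -0.09 within replicates 1 and 2 and -0.67 within replicates 3 and 4. Tnfrsf1b was lower in all 4 pairs too, which made 5 of 9 members, beside 17.8% of all genes. Tnfrsf8 was higher in all 4 pairs, by 0.16 to 0.30, and its difference was 0.22 (SE 0.16, limma adjusted p = 0.383). Its anti-CD3 arrays, at 6.80 or less, lay under the tissue-restricted panel's 90th percentile of 7.02. That panel had a median difference of 0.15 in this comparison. The share of all genes higher in all 4 pairs was not counted. The remaining differences were -0.23 for Tnfrsf1b, -0.19 for Tnfrsf1a, -0.09 for Tnfrsf25 and 0.03 for Fas.

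Markers of cell identity stood as follows beside these values. T cell identity genes averaged 11.03 to 11.36 on KO_CD3 arrays and 11.35 to 11.58 on WT_CD3 arrays, with KO_CD3 replicate 4 the lowest. The median difference of the 10 was -0.22, and 0 passed in limma without the block (3 at an unadjusted p of 0.05) and 1, Zap70, with it. Myeloid and dendritic markers averaged 6.22 to 6.79 on KO_CD3 arrays and 6.34 to 6.50 on WT_CD3 arrays, and 7 of 9 differences were positive and 2 negative. Lyz2 was at 8.42, 5.33, 7.29 and 6.64 in KO_CD3 and at 6.71, 6.53, 5.98 and 5.51 in WT_CD3, while Cd74 differed by -0.54 and H2-Ab1 by -0.36. Cd14 was the myeloid marker that passed with the block, at 0.47 (adjusted p = 0.0286 with it and 0.0665 without). Cd14 lay under the 90th percentile of the tissue-restricted panel on all 16 arrays, so its difference is between dim signals. The panel's own median difference was 0.15, beside 0.03 over all genes. No B cell marker passed with or without it, and 0 of 7 had an unadjusted p under 0.05.

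Of CD8 and NK markers 3 of 6 passed with the block: Klrd1 at 0.92 (adjusted p = 0.00421), Cd8a at 0.27 (0.0496) and Gzmb at -0.94 (0.0453). Of memory markers 2 of 6 did, Il2rb at -0.73 (adjusted p = 0.0146) and S100a4 at 0.38 (0.0489). Of regulatory T cell markers 1 of 12 did, Ctla4 at -0.83 (adjusted p = 0.0177), which activated T cells also express. Over all genes 11.9% passed with the block, and without it none of these marker genes passed in limma. S100a4 averaged 6.36 in KO_CD3 and 5.98 in WT_CD3, and Gzmb 5.78 and 6.72. These means lay under the tissue-restricted panel's 90th percentile of 7.02, and those of Cd8a around it, at 7.13 and 6.85. Foxp3, which defines regulatory T cells, a population rich in Tnfrsf4 and Tnfrsf18 that a CD25- sort largely removes, averaged 7.82 ± 0.07 in KO_CD3 and 8.14 ± 0.35 in WT_CD3 (SD, n = 4). The part of these cell types in the receptor differences was not tested.

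**Figure D3:**
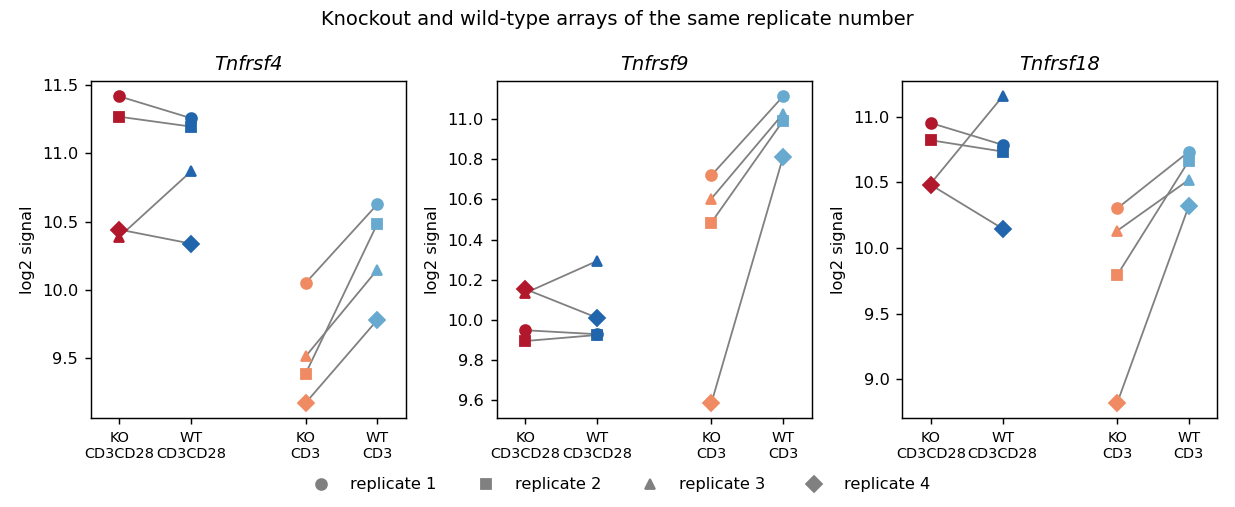
RMA log2 signal (vertical axes) of Tnfrsf4, Tnfrsf9 and Tnfrsf18, with lines joining knockout and wild-type arrays of the same replicate number under each stimulus (horizontal axes). Under anti-CD3 all 4 knockout arrays lay under their wild-type partner for each receptor, and with anti-CD28 the lines ran in both directions.

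With anti-CD28 the genotypes were close. Differences of the 9 members lay between -0.16 (Tnfrsf1a) and 0.10 (Tnfrsf1b), and 0 passed in limma, with 0.00609% of all genes called. At an unadjusted p of 0.05, 0 members and 3.32% of all genes passed. Tnfrsf4 differed by -0.04 (95% interval -0.59 to 0.52), Tnfrsf9 by -0.01 (-0.39 to 0.37) and Tnfrsf18 by -0.02 (-0.56 to 0.52). Differences within these intervals remain compatible with the values of 4 arrays per group. No member was apart between these genotypes, beside 2.75% of all genes.

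The difference between genotypes in the CD28 effect was tested directly as an interaction. For all 3 receptors it was positive: 0.69 for Tnfrsf4 (95% interval -0.10 to 1.48), 0.63 for Tnfrsf9 (0.09 to 1.17) and 0.78 for Tnfrsf18 (0.01 to 1.54). None passed in limma (adjusted p = 0.905 each; 0.297, 0.413 and 0.364 with the block), nor did any gene (0% called). At an unadjusted p of 0.05, 2 members (Tnfrsf9 and Tnfrsf18, both higher) and 5.28% of all genes passed. The larger rise of Tnfrsf4 and Tnfrsf18 and the smaller decline of Tnfrsf9 in knockout cells were therefore not shown to differ from wild type. These comparisons share the KO_CD3 and WT_CD3 arrays.

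The order of the groups summarises the levels. Tnfrsf4, Tnfrsf18 and Tnfrsf8 had their highest means in WT_CD3CD28, closely followed by KO_CD3CD28, which overlapped it. For Tnfrsf4 the third was WT_CD3, which overlapped both neighbours, and for Tnfrsf18 WT_CD3 overlapped KO_CD3CD28 but lay apart from KO_CD3. Tnfrsf9, Cd27, Tnfrsf1a, Tnfrsf1b and Tnfrsf25 had their highest mean in WT_CD3. For Tnfrsf9 it lay apart from the next group, KO_CD3, whereas for the other 4 it overlapped its neighbour. Fas had nearly equal means in KO_CD3 (9.76 ± 0.45) and WT_CD3 (9.73 ± 0.06).

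Receptors were set beside ligands that bind them, which were chosen as partners, with earlier results of these data known. Tnfsf4, the ligand of Tnfrsf4, rose with anti-CD28 by 1.42 log2 units in knockout (SE 0.30, limma adjusted p = 0.000994) and 1.00 in wild-type cells (SE 0.30, adjusted p = 0.0154). Its receptor was called higher in knockout cells and, with the block, in wild-type cells. Tnfsf9, the ligand of Tnfrsf9, rose by 1.37 in knockout (SE 0.21, limma adjusted p = 6.9e-05) and by 1.37 in wild-type cells (SE 0.21, adjusted p = 9.99e-05). Its receptor was called lower in wild-type cells, and in knockout cells differed by -0.32 (limma adjusted p = 0.18). The means of Tnfsf9 were 7.60 ± 0.21 in KO_CD3CD28 and 6.24 ± 0.47 in KO_CD3, and 7.88 ± 0.43 in WT_CD3CD28 and 6.51 ± 0.13 in WT_CD3 (SD, n = 4). The anti-CD3 means thus lay at the background level, and the rise is from there. Tnfsf8, the ligand of Tnfrsf8, rose by 0.83 in knockout cells (SE 0.22, limma adjusted p = 0.00582). In wild-type cells it differed by 0.54 (SE 0.22, adjusted p = 0.0709; 0.00357 with the block).

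Lta, a secreted ligand of Tnfrsf1a and Tnfrsf1b, rose by 2.09 in knockout (SE 0.21, limma adjusted p = 6.32e-07) and by 1.45 in wild-type cells (SE 0.21, adjusted p = 4.96e-05). Tnf, the other ligand of that pair, rose by 0.95 in knockout cells (SE 0.23, limma adjusted p = 0.00401) and differed by 0.08 in wild-type cells (adjusted p = 0.837). Under anti-CD3 Tnf differed between knockout and wild type by -0.84 (SE 0.23, adjusted p = 0.0789; 0.0246 with the block). Fasl, the ligand of Fas, fell by 0.83 in knockout (SE 0.29, limma adjusted p = 0.0331) and by 0.80 in wild-type cells (SE 0.29, adjusted p = 0.05, just inside the threshold). Cd70, the ligand of Cd27, was under the 90th percentile of the tissue-restricted panel on all 16 arrays. Tnfsf15, the ligand of Tnfrsf25, was under it on 14 arrays and differed by -0.09 in knockout and 0.07 in wild-type cells. Tnfsf18, the ligand of Tnfrsf18, was too dim to be tested.

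**Figure D4:**
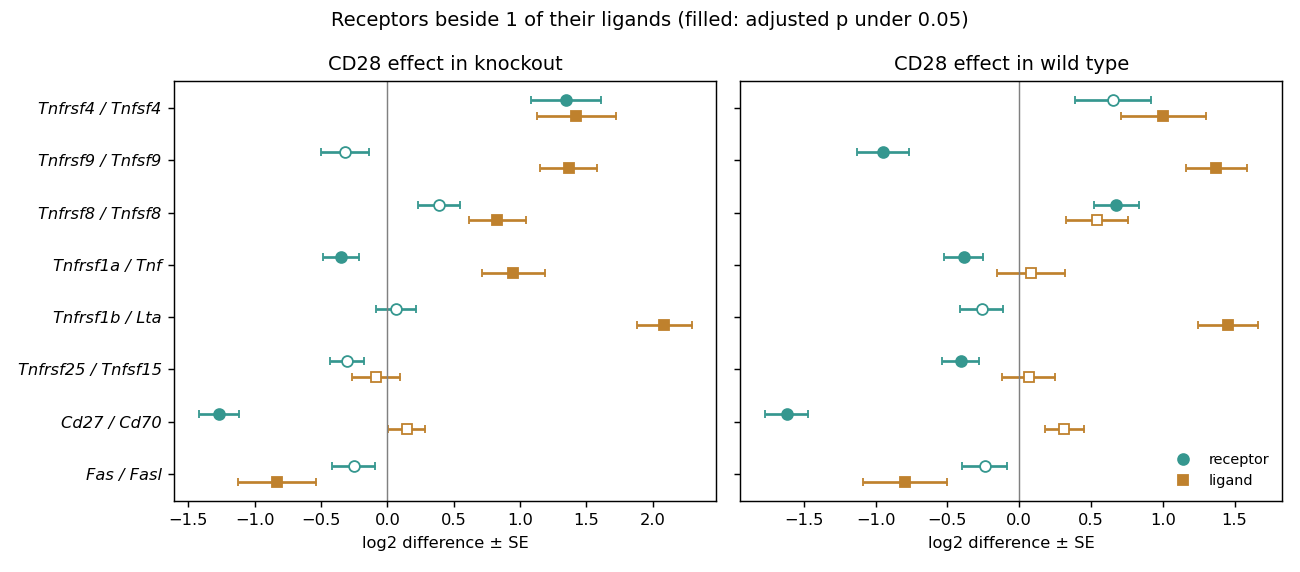
Log2 difference of anti-CD3 plus anti-CD28 minus anti-CD3 (horizontal axes, ± SE) for receptors (circles) and 1 of their ligands (squares), in knockout cells on the left and wild-type cells on the right. Filled symbols passed an adjusted p of 0.05 without the replicate block, which Tnfrsf4 did in knockout cells only and Tnfrsf9 in wild-type cells only. Points of Tnfrsf4 and Tnfsf4 lie on the same side of 0, and those of Tnfrsf9 and Tnfsf9 on opposite sides.

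The rest of the pathway was counted from lists, to be read beside the shares of all genes. With anti-CD28 these were 20.4% higher and 17.6% lower in knockout cells, and 16% higher and 13% lower in wild-type cells. Between genotypes under anti-CD3, 1.03% of all genes passed in limma without the block and 11.9% with it. At an unadjusted p of 0.05, 24.3% did. Of 18 other TNF receptors tested, 2 were higher and 5 lower with anti-CD28 in knockout cells, and 2 higher and 4 lower in wild-type cells. Tnfrsf26, a receptor of the mouse, had log2 differences of -2.32 in knockout and -2.0 in wild-type cells (SE 0.19, limma adjusted p = 6.35e-08 and 6.63e-07). Tnfrsf14, the receptor for LIGHT and BTLA, had differences of -0.53 in knockout and -0.64 in wild-type cells (adjusted p = 0.000193 and 4.44e-05). Tnfrsf10b, the mouse TRAIL receptor with a death domain, rose by 1.01 in knockout and 0.86 in wild-type cells (adjusted p = 0.00057 and 0.00284). Tnfrsf12a fell by 0.58 in knockout cells (adjusted p = 5.99e-05), and Tnfrsf21, which has a death domain, rose by 0.67 in wild-type cells (adjusted p = 0.00105). In the other genotype the means moved the same way. Tnfrsf12a averaged 7.75 in WT_CD3CD28 and 8.11 in WT_CD3, and Tnfrsf21 7.19 in KO_CD3CD28 and 6.50 in KO_CD3. Between genotypes under anti-CD3, 0 passed in limma without the block and 5 had an unadjusted p under 0.05. With it Tnfrsf26 and Tnfrsf11b were higher in knockout cells, by 0.63 and 0.27 (adjusted p = 0.0132 and 0.0481). Tnfrsf11b averaged 6.56 in KO_CD3 and 6.29 in WT_CD3, under the tissue-restricted panel's 90th percentile of 7.02.

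Of 14 TNF ligands tested, 7 rose and 2 fell in knockout cells, and 5 rose and 2 fell in wild-type cells. Tnfsf11, or RANKL, rose by 1.43 in knockout and 1.46 in wild-type cells (SE 0.28, limma adjusted p = 0.000525 and 0.000594). Ltb, the membrane anchor of lymphotoxin, had differences of -1.10 in knockout and -1.32 in wild-type cells (SE 0.17, adjusted p = 5.9e-05 and 1.5e-05). The median of the ligands was 0.45 in knockout and 0.23 in wild-type cells. Between genotypes under anti-CD3, 0 passed in limma, 3 had an unadjusted p under 0.05, and Tnf passed with the block.

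Of 25 TRAF and death domain adaptors tested, 5 rose and 7 fell in knockout cells, and 4 rose and 6 fell in wild-type cells. Siva1, a Cd27-binding protein, rose by 1.33 in knockout cells (SE 0.19, limma adjusted p = 2.61e-05). Cflar, the inhibitor of caspase-8 activation at death receptors, fell by 0.63 in knockout cells (SE 0.09, adjusted p = 1.76e-05). Faf1, a Fas-binding protein, rose by 0.67 and 0.63 in knockout and wild-type cells. The kinase Map3k7 (TAK1), which acts under the TRAFs, rose by 0.51 and 0.52, and Sharpin, a subunit of the linear ubiquitin ligase, fell by 0.71 in wild-type cells (adjusted p = 9.74e-05). Traf6 rose by 0.52 in wild-type cells (adjusted p = 0.000952). Where 1 genotype is named, the means of the other moved the same way. Siva1 averaged 9.31 in WT_CD3CD28 and 8.44 in WT_CD3, and Cflar 10.38 and 10.73. Sharpin averaged 9.11 in KO_CD3CD28 and 9.74 in KO_CD3, and Traf6 10.01 and 9.49. Between genotypes under anti-CD3, 0 passed in limma without the block and 5 had an unadjusted p under 0.05. With it Tradd, the adaptor of Tnfrsf1a and Tnfrsf25, was lower in knockout cells by 0.33 (adjusted p = 0.0376) and Cflar higher by 0.28 (adjusted p = 0.0457).

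Of 26 NF-kB targets tested, 11 rose and 1 fell in knockout cells, and 9 rose and 3 fell in wild-type cells, with medians of 0.41 and 0.24. Bcl2l1, which encodes the survival protein BCL-XL, rose by 1.87 in knockout and 1.79 in wild-type cells (SE 0.32, limma adjusted p = 0.000164 and 0.00035). Rel, an NF-kB subunit, rose by 0.63 and 0.57, and Sod2, a mitochondrial superoxide dismutase, by 0.92 and 0.80. Myc rose by 1.10 in knockout cells (adjusted p = 3.83e-06) and Cd83 by 0.88 in wild-type cells (adjusted p = 0.000822). Their means in the other genotype moved the same way. Myc averaged 11.87 in WT_CD3CD28 and 11.25 in WT_CD3, and Cd83 7.78 in KO_CD3CD28 and 7.16 in KO_CD3. Between genotypes under anti-CD3, 2 passed, both lower in knockout cells: Ccnd2, a G1 cyclin, by 0.67 (SE 0.13, adjusted p = 0.0236) and Myc by 0.60 (SE 0.13, adjusted p = 0.0421). With the block 4 passed, all lower. With anti-CD28 and in the interaction, 0 genes of these 4 lists passed in limma. At an unadjusted p of 0.05, 0 genes of each list passed with anti-CD28, and 0 receptors, 2 ligands, 1 adaptor and 2 NF-kB targets in the interaction. The smallest-p genes between genotypes with anti-CD28 were Tnfrsf26, Tnfrsf19, Cd40lg, Tnfsf14, Tab3, Traf1, Ccnd2 and Irf1, with differences of -0.37 to 0.31. In the interaction they were Ngfr, Tnfrsf12a, Tnf, Lta, Cflar, Tradd, Ccnd2 and Myc, with values of -0.28 to 0.87.

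Markers of other cells moved with the stimulus too. Of all genes, 20.4% were higher and 17.6% lower in knockout cells, and 16% higher and 13% lower in wild-type cells. Regulatory T cell markers had 5 of 12 higher and 0 lower in knockout cells and 4 higher and 1 lower in wild-type cells (5 and 1 with the block), among them Il2ra, which activated T cells also express. Foxp3 itself averaged 8.37 ± 0.14 in KO_CD3CD28 and 7.82 ± 0.07 in KO_CD3, and 8.38 ± 0.47 in WT_CD3CD28 and 8.14 ± 0.35 in WT_CD3 (SD, n = 4). Of memory markers 3 of 6 were higher and 1 lower in each genotype, and of CD8 and NK markers 4 of 6 were higher and 2 lower. B cell markers had 4 of 7 lower in each genotype, and myeloid markers had 5 of 9 lower in knockout and 3 in wild-type cells. Their part in the receptor changes was not tested.

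The genes most like each called member were found over the 16 arrays, as the root mean square difference after each gene's own mean was taken off. Cd27 was followed most closely by Pld3 (0.11 log2 units, beside 0.76 for the variation of Cd27 itself) and Ikbke (0.15). Tnfrsf4, with a variation of 0.68, was nearest to Ppp5c (0.14) and Ehd4 (0.15). Tnfrsf9, with 0.46, was nearest to Ubash3b (0.17) and Psap (0.18), and Tnfrsf18, with 0.53, to Agpat3 (0.18) and Wars (0.19). Tnfrsf8, with 0.35, was nearest to Tbx21 (0.15) and Pdia5 (0.17). The members with small variation had near genes of correspondingly small distance: Arhgap27 and Otud5 for Tnfrsf1a (0.10 and 0.11, beside 0.27), and Bcl11b and Zfp212 for Tnfrsf25 (0.11 each, beside 0.25). The chromosomal neighbours Tnfrsf4 and Tnfrsf18 differed by 0.37, and Tnfrsf18 ranked 525 among all tested genes by closeness to Tnfrsf4.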

How the data were processed

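The deposited values are log2 signals per probe, made by the authors with RMA, per the submitters' processing notes. No source used here gives other steps or the genome build of the array design. The table holds 35556 probes and 16 arrays with 0 missing values, and probes were named through the series' probe table, in which 21789 have 1 symbol. Of these, 17930 were kept, which on 4 or more arrays passed the 25th percentile of that array's values, and the brightest stood for each of 16427 genes.

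Differences were fitted with limma 3.58.1 in R 4.3.3, with 1 mean per group over 16 arrays and Benjamini-Hochberg adjustment over all genes. The fit had 12 residual degrees of freedom, or 9 with the replicate number as a block. Correlations of same-numbered arrays, as deviations from group means, were 0.217 to 0.515 for the CD28 effect in knockout cells and 0.157 to 0.369 for it in wild-type cells. Between knockout and wild type they were 0.181 to 0.453 under anti-CD3 and 0.201 to 0.586 with anti-CD28. The fits without the block were tested on simulated data with independent noise on each array. That noise held no correlation of same-numbered arrays, so the test does not bear on the use of the block. Python 3.11.15, pandas 2.3.3 and matplotlib 3.10.9 made summaries and figures.

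Members, gene lists and motifs were chosen with earlier results of these data known. Named genes are the 9 members, the genes with the smallest p of each of 4 pathway lists (4 per CD28 effect, 2 per other comparison), the 2 nearest profiles of each called member, and Bhlhe40. The ligands of members and single marker genes were named beyond that rule.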

Additional observations from a re-analysis of the deposited data

Results flagged for a closer look

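Tnfrsf8 was at 7.61 log2 units on replicate 1 of WT_CD3CD28, while the other 3 arrays of that group lay between 6.88 and 6.93. The gap to its nearest neighbour was 0.932 of the group's whole range, above Dixon's critical value of 0.829 for 4 samples. It was the only such value among 36 group tests, of which chance gives about 1 in 20. Without that array the wild-type CD28 effect on Tnfrsf8 was 0.50 and remained called.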

How the results depend on the processing

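The number of members called in wild-type cells was 5, with 4770 of all 16427 genes called. It was 3 with each array centred on its median (4679 of all genes), 3 with quantile normalization repeated (4641) and 3 with replicates 3 and 4 alone (2650). Leaving out single arrays gave 3 to 5 members (3947 to 5053 of all genes). The number was 3 without WT_CD3CD28 replicate 1 (3971) or WT_CD3 replicate 4 (3947). In knockout cells 4 members were called (6245 of all genes). There it was 7 with replicates 1 and 2 alone (7682) and 3 to 6 when single arrays were left out (5171 to 6541). Between genotypes under anti-CD3 it was 0 (169 of all genes). It was 3 with the replicate block (1954), 3 with replicates 1 and 2 alone (1388) and 3 with the set of numbers as a block (1254). With the block it was 1 to 2 when each replicate number was left out (114 to 772), an alternative chosen after seeing the data. Among the 9 members, the block changed no other call than those given in the report. With anti-CD28, the block gave 14 higher and 2 lower NF-kB targets in knockout and 9 and 4 in wild-type cells. Of adaptors it gave 5 and 9 in knockout and 5 and 8 in wild-type cells, and of ligands 6 and 2 in wild-type cells. In the same fits 45.3% of all genes passed in knockout and 35.3% in wild-type cells. Reversed values were 0.049 for Tnfrsf9 in knockout cells with replicates 3 and 4 alone and 0.087 for Fas with replicates 1 and 2 alone. Leaving out arrays gave -0.077 to 0.18 for Tnfrsf1b in knockout cells and -0.003 to 0.33 for Tnfrsf18 in wild-type cells, and the block without replicate 3 gave -0.016 for the last. The causes were not tested. Of 45 member results, 9 were called and 0 of these changed sign under 33 alternatives. Tnfrsf4 and Cd27 in knockout and Tnfrsf8 and Cd27 in wild-type cells were called under all of them. Of the 36 not called, 16 changed sign under at least 1. Centring moved the median of all genes in knockout cells to 0.07, against -0.06 as deposited, and the share of called genes that were higher to 75%, against 53.8%. In wild-type cells that share was 69.3%, against 55.1%, and between genotypes under anti-CD3 4.98%, against 27.2%. Xist was high on both arrays of KO replicates 2 and 4 and of WT replicate 1, so pairs of numbers 1, 2 and 4 differ in it. With its level as a covariate Tnfrsf1a in knockout cells lost its call (limma adjusted p = 0.051). Between genotypes under anti-CD3, 0 members were called with the covariate and 0 without it, beside 46 and 169 of all genes. Signal close to background limits what can be said of Tnfrsf8, Cd70, Tnfsf15, Cd14, S100a4 and Tnfrsf11b, and of Gzmb under anti-CD3.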
